A study of Mus musculus with 2 samples.

Results

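The interferon-induced transmembrane (Ifitm) genes of the mouse lung were described in single-cell RNA sequencing data. The members were fixed by name as Ifitm1 (ENSMUSG00000025491), Ifitm2 (ENSMUSG00000060591), Ifitm3 (ENSMUSG00000025492) and Ifitm6 (ENSMUSG00000059108), which are 4 of the 33696 genes in the deposited files. One library was labelled GFI1 KO and one GFI1 WT. Both held live cells sorted from dissociated lungs of adult mice, with 1 mouse named in each label and no treatment given in the labels. The study's methods place all mice on the C57BL6/J background and describe the knockout as a mouse line, without a Cre driver for these samples. The methods state 2 samples per genotype, and 1 per genotype was analysed here. There is therefore no spread between mice, no test was run, and genotype, mouse and library cannot be told apart.

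IFITM proteins are small membrane proteins that sit in the plasma membrane and in endosomes, where they hinder the fusion of incoming enveloped viruses with the cell. IFITM3 acts mainly in endosomes and protects the lung against influenza virus, whereas IFITM1 is found more at the cell surface. Interferons induce several of these genes, and some cell types also transcribe them without an infection. GFI1 is a zinc-finger transcriptional repressor that blood-forming progenitors need to make neutrophils.

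Cells were counted by unique molecular identifiers (UMIs), each standing for 1 captured molecule. The library labelled GFI1 KO held 10495 cells after filtering, with a median of 11076 UMIs, and the library labelled GFI1 WT held 19342, with a median of 6217. A total of 74 cell barcodes occurred in both libraries, 0.692% and 0.379% of the deposited cells. Gfi1 itself stood at 3.6 CPM (3.23 to 4.0) under the GFI1 KO label against 3.46 CPM (3.16 to 3.79) under the GFI1 WT label. Its RNA was not lower where the label says knockout, and because a knockout allele may still give a transcript, the level did not check the labels. All directions given here rest on the labels.

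Levels are given as CPM, the UMIs of a gene per 1000000 UMIs of the same cells, followed in parentheses by the exact 95% Poisson interval. Ratios divide the level under the GFI1 KO label by that under the GFI1 WT label, with an exact conditional binomial interval. Where values of both libraries stand side by side, the library labelled GFI1 KO comes first. All of these intervals cover counting error only. In these 3′ libraries a transcript gives about 1 UMI whatever its length, so the CPM of different genes were set side by side without dividing by length. The 4 members were withheld from the genes used for clustering. Clusters are named by marker genes as "-like" and were grouped into 15 classes and 3 compartments, myeloid, lymphoid and structural. Of 36 clusters, 12 stayed unnamed. They took 7.34% of the cells under the GFI1 KO label against 14.2% under the GFI1 WT label.

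The members lie next to each other on mouse chromosome 7. In RefSeq's annotation of GRCm38.p6, a build other than the GRCm39 of the deposited counts, the order is Ifitm5, Ifitm2, Ifitm1, Ifitm3 and Ifitm6, with 0 other protein-coding genes between neighbours. Ifitm10 follows 55 protein-coding genes further on. All 4 members had an entry in the RefSeq promoter table. The stretches are shown because interferon-response elements are the best known feature of these promoters and differ between the members. The first 3 are the 100 bases before the annotated start, the last is the first 30 transcribed bases of Ifitm3, all 5′ to 3′ on the gene's own strand. Capitals mark a match to the core of the interferon-stimulated response element (GAAA, any 2 bases, GAAA) or to the TATA box letters TATAAA.
Ifitm2, chr7:140955962-140956061, minus strand: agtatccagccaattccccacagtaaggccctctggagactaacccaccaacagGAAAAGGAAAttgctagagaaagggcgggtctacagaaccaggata
Ifitm1, chr7:140967976-140968075, plus strand: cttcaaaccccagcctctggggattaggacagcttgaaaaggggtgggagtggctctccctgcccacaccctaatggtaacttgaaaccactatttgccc
Ifitm6, chr7:141016893-141016992, minus strand: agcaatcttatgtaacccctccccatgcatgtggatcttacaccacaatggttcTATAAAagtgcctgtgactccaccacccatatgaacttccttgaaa
Ifitm3, chr7:141010715-141010744, minus strand: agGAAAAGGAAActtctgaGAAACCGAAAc

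Windows from 250 bases before to 50 bases after each start were searched on both strands. The interferon element was found in Ifitm2 at position -46 and in Ifitm3 at 3 and 20, counted from 1 at the start with no position 0, and was not among the letters of the Ifitm1 and Ifitm6 windows. Of 32536 promoter windows of this length in the table, 3.45% held it. The TATAAA letters lay at -46 in Ifitm6 and, on the opposite strand, at -175 in Ifitm2, and 13.6% of all windows held them. AATCNCNGC, a form of the GFI1 recognition sequence, matched in none of the 4 windows and in 3.81% of all windows. These letter matches do not overlap one another. They describe the sequence and give no information on binding.

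Over all cells, every member was higher in the library labelled GFI1 KO. Ifitm1 gave 15538 UMIs, 164 CPM (162 to 167), under the GFI1 KO label against 10296 UMIs, 75.9 CPM (74.4 to 77.4), under the GFI1 WT label. Ifitm2 stood at 1473 and 356 CPM and Ifitm3, the most abundant member, at 2376 and 537 CPM. Ifitm6 had the largest ratio of the 4, 11.3 (10.9 to 11.6), from 416 and 36.9 CPM. The ratios of Ifitm1, Ifitm2 and Ifitm3 were 2.17 (2.11 to 2.22), 4.14 (4.1 to 4.18) and 4.42 (4.39 to 4.46), beside a median log2 ratio of -0.32 over all genes with at least 100 UMIs.

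The other genes of the family were far lower or moved the other way. Ifitm5, known from bone, gave 260 and 147 UMIs. Ifitm7 gave 2 and 4 UMIs, too few for a ratio. Ifitm10 stood at 15.8 against 37.3 CPM, which gives a ratio of 0.424 (0.4 to 0.45).

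The library totals mix different cells. Classical monocyte-like cells made up 41.4% of the cells under the GFI1 KO label against 1.29% under the GFI1 WT label, 4341 and 250 cells. Neutrophil-like cells numbered 8 and 1430, and endothelial-like cells 107 and 2122. Under the GFI1 KO label, 72.9% of the Ifitm1 UMIs, 82.4% of Ifitm2, 82.0% of Ifitm3 and 85.1% of Ifitm6 lay in classical monocyte-like cells. Under the GFI1 WT label, 58.2% of the Ifitm1 UMIs lay in neutrophil-like cells. Endothelial-like cells then held 23.9% of Ifitm2 and 31.0% of Ifitm3, and nonclassical monocyte-like cells 30.1% of Ifitm6. The class with the most UMIs was thus the same for all 4 members under the GFI1 KO label, whereas under the GFI1 WT label it was shared by Ifitm2 and Ifitm3 alone.

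**Figure D1:**
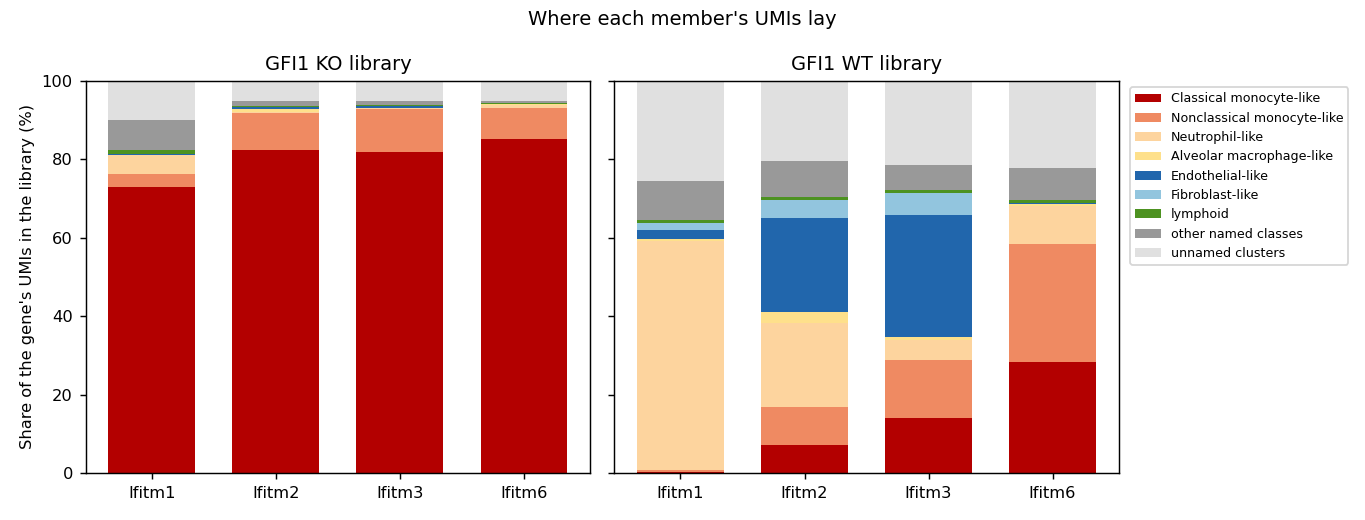
Stacked bars give, for each library, the share in percent of the UMIs of Ifitm1, Ifitm2, Ifitm3 and Ifitm6 that lay in each cell class. Classical monocyte-like cells held between 72.9% and 85.1% under the GFI1 KO label, whereas under the GFI1 WT label neutrophil-like cells held 58.2% of Ifitm1 and endothelial-like cells 31.0% of Ifitm3.

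Each member had its own order of levels over the classes. Ifitm1 was highest in basophil or mast cell-like and neutrophil-like cells. In the 19 and 15 basophil or mast cell-like cells it stood at 7799 and 5625 CPM, and in the 1430 neutrophil-like cells labelled GFI1 WT at 1408 CPM (1372 to 1444). Epithelial-like cells followed under the GFI1 WT label with 159 CPM (141 to 178) and fibroblast-like cells with 78.2 CPM (67.4 to 90.2). Dendritic cell-like cells at 40.4 CPM (35.8 to 45.5) and group 2 innate lymphoid cell-like cells at 32.3 CPM (21.1 to 47.3) had overlapping intervals, as had endothelial-like cells at 20.4 CPM (17.8 to 23.3), nonclassical monocyte-like cells at 19.7 CPM (15.1 to 25.2) and classical monocyte-like cells at 15.1 CPM (9.93 to 21.9). Few cells carried some of these values. Of the 575 dendritic cell-like cells, 5 held 57.7% of the Ifitm1 UMIs, and 3 of the 153 group 2 innate lymphoid cell-like cells held all 26. The intervals do not cover this, so the order of these lower classes stays loose. In alveolar macrophage-like and B cell-like cells Ifitm1 was below 2 CPM, 1.59 and 1.43 CPM. Ifitm1 was thus highest in the granulocyte-type classes of this library.

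Ifitm2 and Ifitm3 were shared by monocytes, vessels and fibroblasts. Under the GFI1 WT label Ifitm2 was highest in neutrophil-like cells with 2438 CPM (2391 to 2485), then in classical monocyte-like cells with 1919 CPM (1855 to 1984), nonclassical monocyte-like cells with 1476 CPM (1434 to 1519), endothelial-like cells with 1075 CPM (1055 to 1094) and fibroblast-like cells with 924 CPM (886 to 963). Ifitm3 was highest in classical monocyte-like cells with 5654 CPM (5544 to 5765), then in nonclassical monocyte-like cells with 3474 CPM (3409 to 3539), endothelial-like cells with 2108 CPM (2080.5 to 2136) and fibroblast-like cells with 1767 CPM (1714 to 1821). Both were low in alveolar macrophage-like cells, with 31.3 and 12.9 CPM, and at or below 12.4 CPM in B cell-like, T cell-like and NK cell-like cells. The intervals of neighbours in these orders did not overlap, apart from the lymphoid classes.

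The ratio of Ifitm3 to Ifitm2 differed between cell types. Under the GFI1 WT label it was 2.95 in classical and 2.35 in nonclassical monocyte-like cells, 1.96 in endothelial-like and 1.91 in fibroblast-like cells. It was 0.411 in alveolar macrophage-like, 0.352 in neutrophil-like and 0.149 in basophil or mast cell-like cells, where Ifitm2 exceeded Ifitm3. Under the GFI1 KO label the ratio was 1.61 in classical and 1.87 in nonclassical monocyte-like cells, 1.47 in endothelial-like cells and 0.357 in alveolar macrophage-like cells.

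Ifitm6 was highest in monocytes and neutrophils and near 0 in structural cells. Under the GFI1 WT label it stood at 787 CPM (747 to 829) in classical and 478 CPM (454 to 503) in nonclassical monocyte-like cells, then at 116 CPM (106 to 126) in neutrophil-like and 43.5 CPM (38.7 to 48.8) in dendritic cell-like cells. Endothelial-like cells had 17 UMIs, fibroblast-like cells 1 and basophil or mast cell-like cells 0, which in those 15 cells allows a level of up to 42.1 CPM (3 counts). Under the GFI1 KO label the 2 monocyte classes stood at 779 and 499 CPM. Ifitm6 was among the leading 10 genes of the main classical monocyte-like cluster, although it had not entered the clustering.

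**Figure D2:**
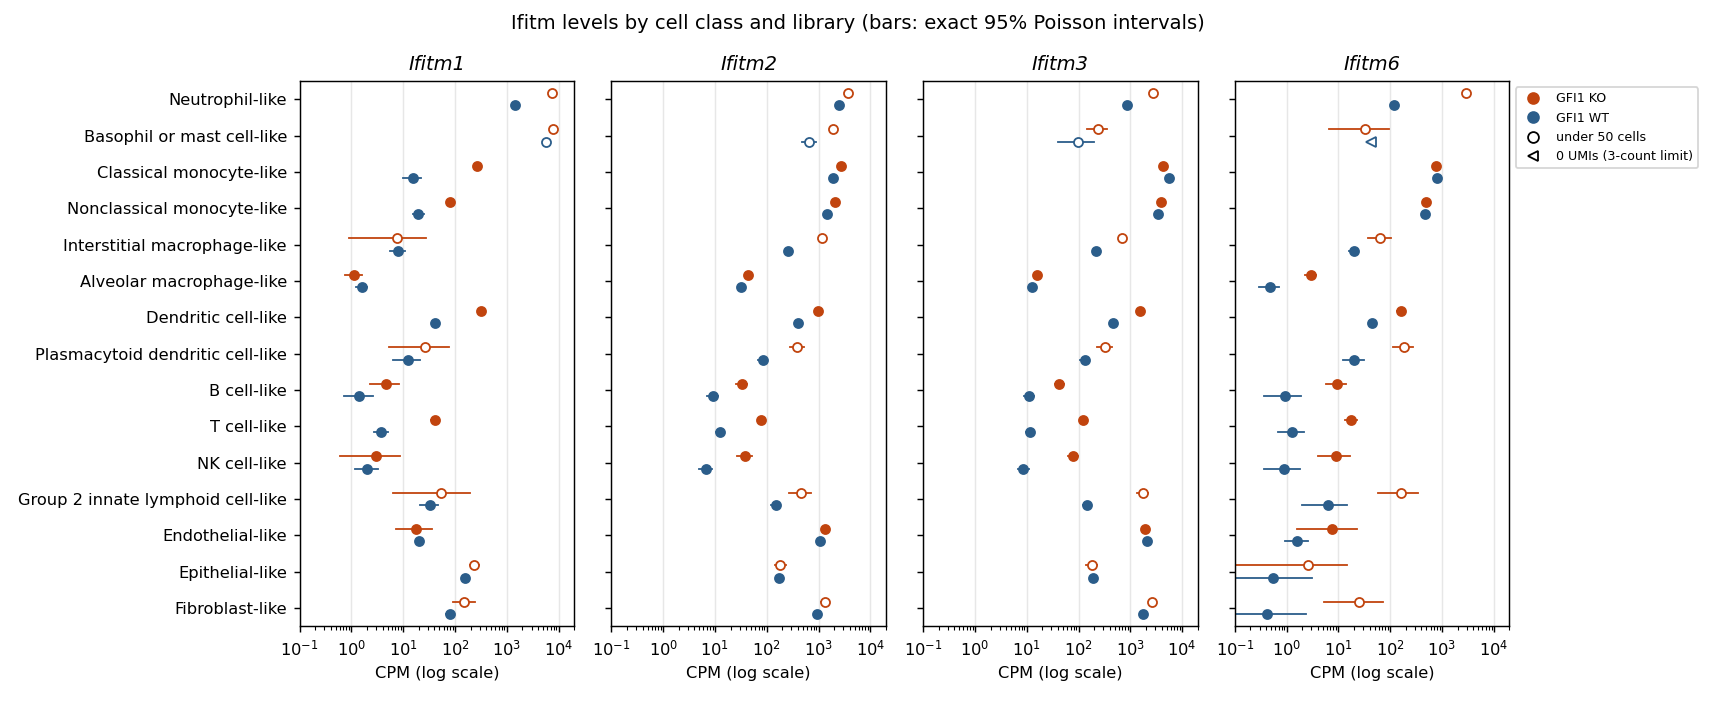
Levels in CPM on a log axis for each member, with 1 row per cell class and library and bars for the exact 95% Poisson intervals. Open circles are classes with fewer than 50 cells and the triangle is a class with 0 UMIs drawn at the limit 3 counts allow. The 2 libraries sit close together for Ifitm6 in monocyte-like cells at 779 and 787 CPM, and apart for Ifitm1 at 264 and 15.1 CPM.

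The comparison of the libraries was first made over the compartments. A gene was called higher or lower by size alone, at a ratio of at least 1.5 in either direction, among genes with at least 100 UMIs over both libraries. In myeloid cells, 7788 and 7098, all 4 members were called higher, where 10.6% of 12445 genes were called higher and 23.6% lower. Ifitm1 stood at 178 against 103 CPM, which gives a ratio of 1.73 (1.68 to 1.78). Ifitm2 and Ifitm3 had ratios of 4.74 (4.67 to 4.8) and 6.18 (6.11 to 6.26), and Ifitm6 one of 8.38 (8.11 to 8.67). Summed, the members gave 5108 against 964 CPM, which gives a ratio of 5.3 (5.26 to 5.34). Without the classical monocyte-like class, a setting that was chosen once the data had been seen, this sum had a log2 ratio of 0.94 in place of 2.41. As the median over the 6 myeloid clusters with at least 50 cells of each library it was 0.38.

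In lymphoid cells, 1770 and 6887, all 4 members were also called higher, where 6.99% of 10647 genes were called higher and 7.22% lower. Their levels were low, between 14.3 and 96.2 CPM under the GFI1 KO label, and between 1.2 and 14.7 CPM under the GFI1 WT label. The ratios of Ifitm1, Ifitm2, Ifitm3 and Ifitm6 were 6.74 (5.18 to 8.8), 4.26 (3.69 to 4.92), 6.55 (5.77 to 7.43) and 11.9 (7.93 to 18.3). The sum stood at 192 against 33.1 CPM, which gives a ratio of 5.81 (5.33 to 6.33). In structural cells, 167 and 2602, only Ifitm1 of the 3 members with enough UMIs was called higher, where 8.98% of 10670 genes were called higher and 20.9% lower. Ifitm1 had a ratio of 2.79 (2.27 to 3.4) from 129 and 46.4 CPM, Ifitm2 one of 0.886 (0.822 to 0.954) and Ifitm3 one of 0.7 (0.659 to 0.742), while Ifitm6 gave 7 and 19 UMIs. Epithelial-like cells, 38 and 121, held 91 of the 116 and 286 of the 693 structural Ifitm1 UMIs. In endothelial-like cells the Ifitm1 ratio was 0.873 (0.347 to 1.83). The sum was lower, at 2246 against 2811 CPM, which gives a ratio of 0.799 (0.764 to 0.836). On the log2 scale this was -0.32, and 0.26 when the libraries were clustered separately.

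Within classes with at least 50 cells of each library, 24 values of a member in a class rested on at least 100 UMIs. Of these, 12 were at least 1.5-fold higher under the GFI1 KO label, and 0 were at least 1.5-fold lower, where over these classes 0.63% to 15.0% of all genes were called higher and 2.59% to 14.0% lower. They lay in dendritic cell-like, T cell-like, B cell-like and NK cell-like cells and, for Ifitm1, in both monocyte-like classes. In alveolar macrophage-like and endothelial-like cells 0 members were called. With cells thinned to 1500 UMIs, 14 values had enough UMIs and 4 were of this size.

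**Figure D3:**
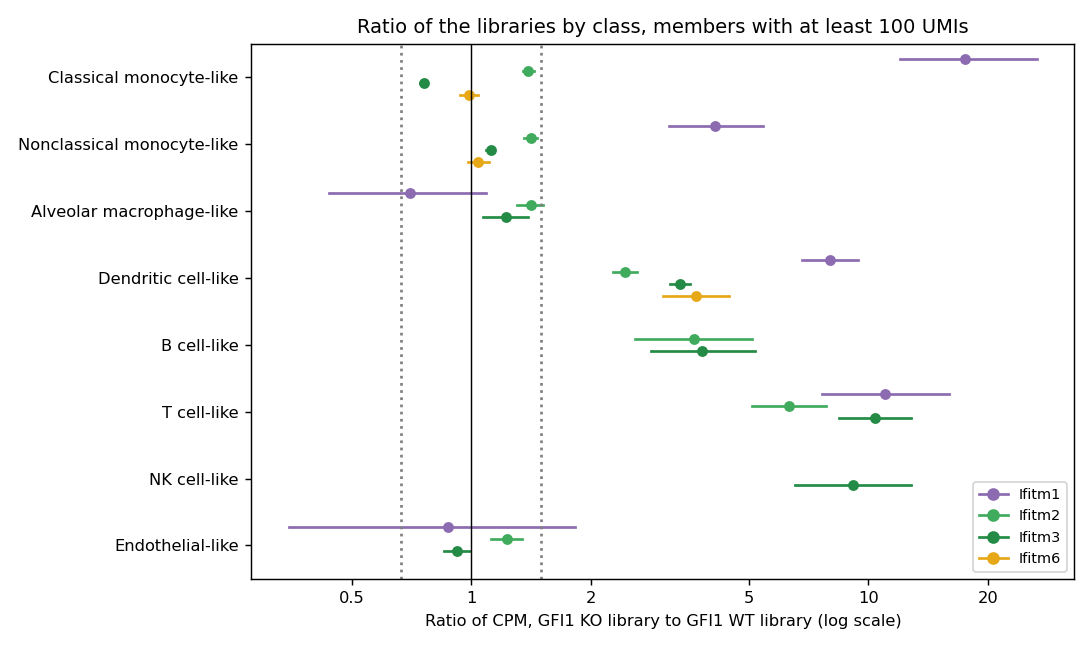
Ratio of the level under the GFI1 KO label to that under the GFI1 WT label on a log axis, 1 point per member and class with at least 100 UMIs and bars for the exact conditional binomial 95% intervals. Ifitm1 stands apart in classical monocyte-like cells at 17.5, where the other 3 members lie between 0.759 and 1.39.

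In classical monocyte-like cells the members separated. Ifitm1 was 17.5 times as high under the GFI1 KO label, while Ifitm2, Ifitm3 and Ifitm6 stayed within 1.5-fold. Ifitm1 gave 11330 UMIs in 4341 cells, 264 CPM (259 to 269), and 27 UMIs in 250 cells, 15.1 CPM (9.93 to 21.9), which gives a log2 ratio of 4.13 (3.59 to 4.73). It was the only member of the 4 called higher, where 15.0% of 9924 genes were called higher and 9.93% lower.

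Ifitm2 stood at 2671 CPM (2656 to 2687) against 1919 CPM (1855 to 1984), which gives a ratio of 1.39 (1.35 to 1.44). Ifitm3 stood at 4289 CPM (4269 to 4308) against 5654 CPM (5544 to 5765), which gives a ratio of 0.759 (0.743 to 0.774). Ifitm6 stood at 779 CPM (770.2 to 787) against 787 CPM (747 to 829), which gives a ratio of 0.989 (0.938 to 1.04). The sum of the members was 8002 and 8375 CPM, so it differed far less than over all myeloid cells. The Ifitm6 intervals of the libraries overlapped, while those of Ifitm2 and Ifitm3 did not and lay in opposite directions.

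Ifitm1 was found in many cells labelled GFI1 KO, but its UMIs were unevenly spread over them. A UMI of Ifitm1 was found in 1971 of 4341 cells labelled GFI1 KO, 45.4%, and the 5 cells with the most held 5.68% of its UMIs, up to 177 in a cell. Under the GFI1 WT label it was found in 18 of 250 cells, 7.2%. At 1500 UMIs per cell, with 6 cells labelled GFI1 KO too shallow and left out, the shares were 18.1% (16.9 to 19.2) and 1.6% (0.438 to 4.05). Alveolar macrophage-like cells labelled GFI1 KO, which hold little Ifitm1, had 0.26% (0.0954 to 0.564) at the same depth. The part of free RNA in the monocyte-like share was not tested. Ifitm2 was found in 96.2% and 90.8%, Ifitm3 in 99.1% and 99.2% and Ifitm6 in 65.3% and 65.2% of thinned cells. Per thinned cell the median was 4 and 2 UMIs of Ifitm2, 6 and 8 of Ifitm3 and 1 and 1 of Ifitm6, whereas 81.9% of cells labelled GFI1 KO had 0 UMIs of Ifitm1 and 3.94% had 3 or more.

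The class held a main cluster led by Saa3, Vcan and Prtn3 and a small one led by Ifit1bl1 and Ifit3. The main cluster had all 7 classical monocyte markers raised and 3 of the 8 immature granulocyte markers, and its leading 10 genes also held Lrg1 and Cd177, genes of granulocytes. The small cluster took 60 and 39 cells, 1.38% and 15.6% of the class. In the main cluster Ifitm1 stood at 263 and 14.2 CPM, Ifitm2 at 2671 and 1947 CPM, Ifitm3 at 4259.6 and 5482 CPM and Ifitm6 at 777 and 770.1 CPM. The same member, Ifitm1, was the only one called higher there, where 14.4% of 9889 genes were called higher and 10.0% lower. In the small cluster Ifitm1 stood at 293 and 19.4 CPM and Ifitm3 at 6321 and 6476 CPM.

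Several genes of neutrophils were also higher under the GFI1 KO label in these cells, but not all. S100a8 stood at 3076 and 115 CPM, S100a9 at 2232 and 220.5 CPM and Lcn2 at 572 and 6.14 CPM, while the mature neutrophil gene Retnlg stood at 1.58 and 23.4 CPM and the secondary granule gene Ngp at 1.02 and 0 CPM. For comparison, S100a8 reached 115129 and 29782 CPM in neutrophil-like cells. The 7 classical monocyte markers summed to 9056 and 11058 CPM. Over single cells at equal depth, Ifitm1 had r = 0.04 with the sum of the 8 immature granulocyte markers, Prtn3 and Ngp among them, in 4335 cells labelled GFI1 KO and -0.03 in 250 labelled GFI1 WT. At this depth 81.9% and 98.4% of the cells had 0 UMIs of Ifitm1. Such sparse counts keep r near 0, so it cannot tell whether the 2 are related. At a finer resolution of 1.2 the class fell into 3 clusters. In one, whose leading 10 genes held the monocyte markers Vcan and F13a1 and the granulocyte genes Prtn3, Lcn2, Lrg1 and Cd177, with 3285 and 78 cells, Ifitm1 stood at 291 and 25.5 CPM and S100a8 at 3895 and 162 CPM. In another led by Aif1 and Adgre4, which stayed unnamed at this resolution, with 982 and 133 cells, Ifitm1 stood at 159.9 and 7.53 CPM and S100a8 at 159 and 8.6 CPM. In the third, led by Ifit genes, Ifitm1 stood at 271 and 19.2 CPM and S100a8 at 572 and 349 CPM. Ifitm1 and S100a8 were thus both higher under the GFI1 KO label in each of these clusters. The part of neutrophil-type cells or RNA in the result was not tested.

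Nonclassical monocyte-like cells, 950 and 549, patrol the vessel wall and were marked by Treml4, Cd300e and Ace. Ifitm1 again was the only member called higher, where 6.8% of 7583 genes were called higher and 4.81% lower. It stood at 80.5 CPM (73.7 to 87.8) against 19.7 CPM (15.1 to 25.2), which gives a ratio of 4.1 (3.14 to 5.42), but 5 of the 950 cells held 34.8% of its UMIs, 110 of them in a single cell. The ratio was 2.24 when the libraries were clustered separately. Ifitm2 had 2083 against 1476 CPM, which gives a ratio of 1.41 (1.36 to 1.46), close to its ratio in classical monocyte-like cells. Ifitm3 had 3884 and 3474 CPM and Ifitm6 499 and 478 CPM, ratios of 1.12 (1.09 to 1.14) and 1.04 (0.981 to 1.11).

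Alveolar macrophage-like cells, 2318 and 3705, were the largest class of the library labelled GFI1 WT and the poorest in members among myeloid cells. Ifitm2 stood at 44.0 CPM (41.5 to 46.6) against 31.3 CPM (29.7 to 33.0), which gives a ratio of 1.41 (1.3 to 1.52), and Ifitm3 at 15.7 CPM (14.2 to 17.3) against 12.9 CPM (11.8 to 14.0), which gives a ratio of 1.22 (1.07 to 1.39). Ifitm1 stood at 1.11 and 1.59 CPM. Ifitm6 gave 76 and 21 UMIs, under the 100 needed, with a ratio of 6.2 (3.78 to 10.6). Of 3 members 0 were called, where 0.63% of 10790 genes were called higher and 3.18% lower. Under the GFI1 KO label Ifitm3 thus had 15.7 CPM here and 4289 CPM in classical monocyte-like cells. Ifitm10 was found here at 41.5 and 53.5 CPM, above Ifitm3 in both libraries.

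Dendritic cell-like cells numbered 113 and 575, and all 4 members were called higher under the GFI1 KO label, where 5.5% of 7867 genes were called higher and 11.8% lower. Ifitm1 stood at 323 and 40.4 CPM, Ifitm2 at 967 and 396 CPM, Ifitm3 at 1529 and 456 CPM and Ifitm6 at 160.3 and 43.5 CPM. The ratios were 8.0 (6.81 to 9.4), 2.44 (2.27 to 2.62), 3.35 (3.16 to 3.56) and 3.68 (3.04 to 4.46). These depended on which cells formed the class, and 5 of the 113 cells held 64.3% of the Ifitm1 UMIs. Of the 113 cells, 64 were also dendritic cell-like when the library labelled GFI1 KO was clustered alone, and in them the levels were 16.2, 253, 286 and 40.6 CPM. The 570 cells of the other library chosen in the same way had 40.0, 391, 443 and 41.6 CPM. Ifitm1, Ifitm2 and Ifitm3 were then lower under the GFI1 KO label, while Ifitm6 was at about the same level. These 2 sets held different mixes of dendritic cells. All 64 lay in 1 cluster of their library's own clustering, with Xcr1 among its leading 10 genes. Of the 570, 350 lay in a cluster with Cd209a and Mgl2 among its leading 10. The part of this mix in the directions was not tested. The remaining 49 of the 113 cells had 722, 1891, 3141 and 316 CPM. They had 2977 CPM of the 7 classical monocyte markers, beside 815 CPM in the 64 cells. Of these 49 cells, 43 lay in a cluster led by Cd5l, Siglech, Mgl2 and C1qa. Its leading 10 genes also held the dendritic cell marker Cd209a. The dendritic cell markers summed to 1904 CPM in the 49 cells and to 4028 CPM in the 64 cells. In the joint clustering the cluster led by Xcr1, a gene of cross-presenting dendritic cells, had 56 and 221 cells. Ifitm2 stood there at 413 and 178 CPM and Ifitm3 at 521 and 209 CPM. A few cells carried these values under the GFI1 KO label, where 5 of the 56 held 67.9% of the Ifitm2 and 78.0% of the Ifitm3 UMIs. Ifitm2 was found in 28 of the 56 and 110 of the 221 cells, and Ifitm3 in 25 and 93.

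Several myeloid classes had fewer than 50 cells under the GFI1 KO label, and their values are given without a comparison. In the 8 and 1430 neutrophil-like cells Ifitm1 stood at 7532 and 1408 CPM, Ifitm2 at 3736 and 2438 CPM, Ifitm3 at 2707 and 859 CPM and Ifitm6 at 2927 and 116 CPM. In the 26 and 442 interstitial macrophage-like cells Ifitm2 stood at 1157 and 256 CPM and Ifitm3 at 698 and 215 CPM, and Ifitm1 at 7.47 and 7.79 CPM. In the 13 and 132 plasmacytoid dendritic cell-like cells, which are known for making type I interferon, Ifitm3 stood at 322 and 131 CPM and Ifitm2 at 383 and 83.3 CPM. Of the 132 cells, 5 that were all called doublets held 87.6% of the Ifitm3 and 67.1% of the Ifitm2 UMIs. Basophil or mast cell-like cells were the class in which Ifitm1 made up most of the members' UMIs, 78.1% and 88.1%, beside 29.2% in neutrophil-like cells labelled GFI1 WT. In classical monocyte-like cells that share was 3.3% and 0.18%.

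In the lymphoid classes compared, Ifitm2, Ifitm3 and Ifitm6 were at or below 2.94% of the classical monocyte-like level of the same library. B cell-like cells, 777 and 2293, had Ifitm2 at 32.6 CPM (25.7 to 40.8) against 8.99 CPM (6.99 to 11.4), which gives a ratio of 3.63 (2.59 to 5.1), and Ifitm3 at 42.3 CPM (34.5 to 51.5) against 11.1 CPM (8.84 to 13.7), which gives a ratio of 3.82 (2.84 to 5.17). Both members with enough UMIs were called higher, where 3.05% of 8152 genes were called higher and 2.59% lower. Ifitm1 gave 11 and 11 UMIs and Ifitm6 22 and 7. The 100 UMIs of Ifitm3 lay in 90 cells labelled GFI1 KO with at most 2 in a cell.

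NK cell-like cells, 218 and 2036, had Ifitm3 at 79.2 CPM (62.9 to 98.5) against 8.65 CPM (6.72 to 11.0), which gives a ratio of 9.16 (6.55 to 12.8). It was the single member with enough UMIs and was called higher, where 10.2% of 7934 genes were called higher and 14.0% lower. Of its 81 UMIs under the GFI1 KO label, 36 came from a single cell and 54.3% from 5 cells. Without cells called doublets the ratio was 5.56. Ifitm1 gave 3 and 16 UMIs, Ifitm2 38 and 52 and Ifitm6 9 and 7.

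T cell-like cells, 766 and 2405, had Ifitm1 at 41.2 CPM (34.8 to 48.5) against 3.76 CPM (2.67 to 5.13), Ifitm2 at 78.4 CPM (69.4 to 88.2) against 12.4 CPM (10.4 to 14.8) and Ifitm3 at 119.9 CPM (109 to 132) against 11.6 CPM (9.58 to 13.8). The ratios were 11.0 (7.66 to 16.0), 6.31 (5.1 to 7.84) and 10.4 (8.45 to 12.8), and all 3 members with enough UMIs were called higher, where 10.4% of 8934 genes were called higher and 7.89% lower. A few cells carried these values. Under the GFI1 KO label 5 cells held 89.0% of the Ifitm1 UMIs, and 5 cells, all called doublets, held 42.8% of Ifitm2 and 46.9% of Ifitm3. Without doublets the ratios were 16.6, 2.93 and 3.17. Ifitm6 gave 62 and 13 UMIs. In the 9 and 153 group 2 innate lymphoid cell-like cells Ifitm3 stood at 1732 and 149 CPM and Ifitm2 at 453 and 148 CPM. Of the 153 cells, 5 that were all called doublets held 62.5% of the Ifitm3 and 44.5% of the Ifitm2 UMIs. All 26 Ifitm1 UMIs of those 153 cells lay in 3 cells.

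The T cell-like clusters differed. In the cluster led by Cd8b1, with 179 and 1067 cells, the sum of the members was 65.7 and 16.2 CPM, and in the cluster led by Cd4, with 90 and 763 cells, it was 73.1 and 20.8 CPM. In the cluster led by Il17a and Il23r, genes of interleukin-17-producing T cells, with 271 and 281 cells, Ifitm3 stood at 290.3 CPM (261 to 322) against 28.2 CPM (19.9 to 38.9). There 5 cells labelled GFI1 KO, all called doublets, held 55.5% of its UMIs. Ifitm1 gave 12 and 24 UMIs in that cluster, under the 100 needed, with a ratio of 0.533 (0.243 to 1.11). In the cluster led by Ifngas1 and Scart1, with 226 and 294 cells, Ifitm1 stood at 112 CPM (93.4 to 133) against 2.25 CPM (0.464 to 6.58). Of its 129 UMIs under the GFI1 KO label 128 lay in 5 cells, of which 0 were called doublets. Ifitm2 gave 41 and 14 UMIs there, Ifitm3 31 and 11 and Ifitm6 9 and 2, each under the 100 needed. Their ratios of 3.39 (1.81 to 6.72), 3.26 (1.59 to 7.18) and 5.2 (1.08 to 49.5) were also above 1, beside 49.7 (16.6 to 244) for Ifitm1.

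As a measure of free RNA, genes of monocytes were read in the same lymphoid cells. In B cell-like cells labelled GFI1 KO, Ifitm1, Ifitm2, Ifitm3 and Ifitm6 were at 1.77%, 1.22%, 0.987% and 1.2% of their level in classical monocyte-like cells of that library. The monocyte markers Vcan, F13a1 and Fn1 were at 1.24%, 0.917% and 1.74% there. In NK cell-like cells the members were at 1.11%, 1.39%, 1.85% and 1.13%, and Vcan, F13a1 and Fn1 at 4.05%, 1.34% and 0.907%. The members and these markers thus lay between 0.907% and 4.05%. Fn1 is not particular to monocytes. Alveolar macrophage-like cells labelled GFI1 KO had it at 854 CPM, 113% of the classical monocyte-like level. S100a8, S100a9 and Lcn2 lay below each member under the GFI1 KO label. They were at 0.523%, 0.664% and 0.815% in B cell-like and at 0.572%, 0.263% and 0.684% in NK cell-like cells. In B cell-like cells labelled GFI1 WT, in a library with few classical monocyte-like cells, Ifitm1, Ifitm2, Ifitm3 and Ifitm6 were at 9.51%, 0.468%, 0.196% and 0.116%. Vcan, F13a1 and Fn1 were at 0.0483%, 0.132% and 1.32% there. In the cluster led by Il17a the members were at 3.7%, 6.15%, 6.77% and 4.91% under the GFI1 KO label, and Vcan, F13a1 and Fn1 at 4.02%, 5.1% and 7.86%. In the cluster led by Ifngas1 and Scart1 these genes lay further apart, with Ifitm1 at 42.4% beside Vcan at 0.232%.

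Genes of other cells gave further references. In B cell-like cells S100a8 stood at 16.1 and 16.0 CPM, S100a9 at 14.8 and 26.8 CPM, Lcn2 at 4.66 and 0.13 CPM, Scgb1a1, a club cell gene, at 43.2 and 229 CPM, and Sftpc, an alveolar type II cell gene, at 3.39 and 2.61 CPM. Ngp gave 0 and 4 UMIs and Retnlg 0 and 10. The 7 classical monocyte markers, of which Ccr2, Ly6c2, Ms4a4c and Plac8 are also expressed by lymphoid cells, summed to 976 and 898 CPM. The part of free RNA and of doublets in the lymphoid values was not tested.

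**Figure D4:**
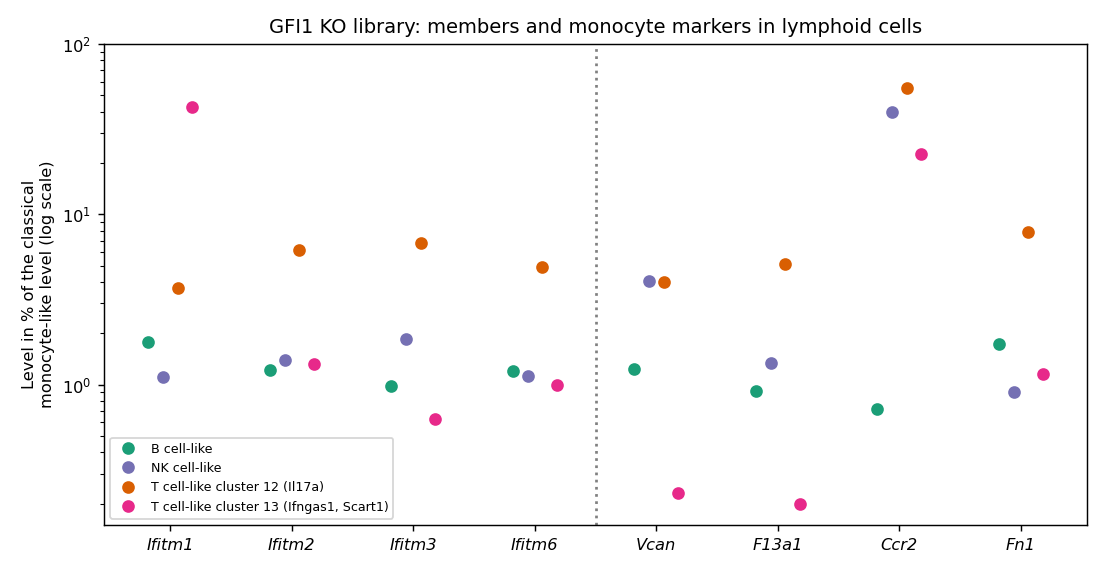
Level of the 4 members and of the classical monocyte markers Vcan, F13a1, Ccr2 and Fn1 in B cell-like cells, NK cell-like cells and 2 T cell-like clusters of the library labelled GFI1 KO, in percent of the level in classical monocyte-like cells of that library, on a log axis. In B cell-like cells the members lie between 0.987% and 1.77%, next to Vcan at 1.24%, while Ccr2, which lymphoid cells also express, reaches 40.1% in NK cell-like cells.

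Endothelial-like cells, 107 and 2122, were the structural class with enough cells, and none of the 3 members with enough UMIs was called, where 9.61% of 8922 genes were called higher and 12.1% lower. Ifitm3, the member with the most UMIs in this class, stood at 1941 CPM (1806 to 2084) against 2108 CPM (2080.5 to 2136), which gives a ratio of 0.921 (0.856 to 0.99). Ifitm2 stood at 1320.2 CPM (1209 to 1439) against 1075 CPM (1055 to 1094), which gives a ratio of 1.23 (1.12 to 1.34). Ifitm1 had a ratio of 0.873 (0.347 to 1.83) from 7 and 219 UMIs, and Ifitm6 gave 3 and 17 UMIs. The sum of the members was 3286 against 3204 CPM, which gives a ratio of 1.03. The endothelial-like clusters differed under the GFI1 WT label. The ratio of Ifitm3 to Ifitm2 was 2.11 in the larger one, with 1916 cells, and 0.875 in the smaller one, with 206 cells.

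The lower sum over all structural cells accompanied a different mix of classes. Epithelial-like cells numbered 38 and 121 and fibroblast-like cells 22 and 359. In fibroblast-like cells Ifitm3 stood at 2599 and 1767 CPM and Ifitm2 at 1333 and 924 CPM. Epithelial-like cells had Ifitm1 at 237 and 159 CPM, Ifitm2 at 182 and 175 CPM and Ifitm3 at 179.8 and 190.3 CPM. Ifitm1 made up 39.4% and 30.2% of the members' UMIs there, a larger share than in endothelial-like or fibroblast-like cells.

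The other genes of the interferon response were read from a list of 56 genes. In classical monocyte-like cells 55 had enough UMIs, of which 51 were called lower and 0 higher. Of all genes 9.93% were called lower and 15.0% higher. The median log2 ratio of the list was -1.32 beside 0.05 over all genes. Isg15, a ubiquitin-like modifier, stood at 105 and 358 CPM, which gives a ratio of 0.293 (0.269 to 0.318). Irf7, a factor that drives interferon transcription, stood at 107 and 334 CPM. Bst2, a membrane protein that tethers budding viruses, stood at 130.3 and 367 CPM, and Ifit3, an antiviral RNA-binding family member, at 7.76 and 89.9 CPM. Ifitm1 and Ifitm2 lay in the opposite direction, Ifitm6 had a ratio of 0.989, and Ifitm3, at 0.759, was lower by less than all but 3 of the 55, which were Samhd1, Ly6e and Irf9. In the main cluster alone, without the cells led by Ifit genes, 34 of 53 were called lower and 0 higher. Of all genes 10.0% were called lower and 14.4% higher there.

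Over all myeloid cells the list went the other way, with 27 of 56 called higher and 5 lower. Of all genes 10.6% were called higher and 23.6% lower. The median log2 ratio of the list was 0.56 beside -0.13 over all genes. Ifi209 stood at 95.4 and 23.0 CPM, Gbp3 at 32.1 and 7.83 CPM and Zbp1 at 76.6 and 21.5 CPM, and the lowest ratios were those of Ifi44 at 0.104 and 1.99 CPM, Ifit3b at 1.33 and 5.0 CPM and Oasl2 at 11.7 and 31.6 CPM. Without the classical monocyte-like class 1 was called higher and 14 lower. The share over all genes was not computed for that setting. In nonclassical monocyte-like cells 2 of 46 were called higher and 8 lower, in alveolar macrophage-like cells 0 and 1 of 37, and in dendritic cell-like cells 8 and 2 of 36. Over all genes 6.8% were called higher and 4.81% lower in nonclassical monocyte-like, 0.63% and 3.18% in alveolar macrophage-like and 5.5% and 11.8% in dendritic cell-like cells.

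In lymphoid cells 6 of 51 list genes were called higher and 0 lower, with a median log2 ratio of 0.07 beside -0.01 over all genes. Of all genes 6.99% were called higher and 7.22% lower. Ifi204, a DNA sensor of myeloid cells, stood at 10.7 and 1.27 CPM, Phf11b at 64.1 and 32.9 CPM and Oas3 at 14.0 and 6.66 CPM, and the lowest were Slfn8, Ifi213 and Oasl1, with ratios of 0.713 (0.608 to 0.832), 0.799 (0.71 to 0.898) and 0.752 (0.587 to 0.953). Counts by class were 4 higher and 1 lower of 43 in T cell-like, 1 and 0 of 34 in B cell-like and 6 and 4 of 35 in NK cell-like cells. The shares called higher were 9.3%, 2.94% and 17.1% of the list beside 10.4%, 3.05% and 10.2% of all genes, so in T cell-like and B cell-like cells the list lay near the background. The shares called lower were 2.33%, 0.0% and 11.4% beside 7.89%, 2.59% and 14.0%. In structural cells 1 of 51 was called higher and 42 lower, with a median log2 ratio of -1.21 beside -0.2 over all genes. Of all genes 8.98% were called higher and 20.9% lower. Isg20 stood there at 49.1 and 31.1 CPM, and Ly6e and Bst2, next in the ranking by interval bound, at 1146 and 1413 CPM and at 276 and 436 CPM. The lowest were Isg15 at 15.6 and 84.5 CPM, Oasl2 at 29.0 and 133 CPM and Rtp4 at 27.9 and 116 CPM. In endothelial-like cells 1 of 48 was called higher and 29 lower, while Ifitm2 and Ifitm3 were not called. Of all genes 9.61% were called higher and 12.1% lower there.

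**Figure D5:**
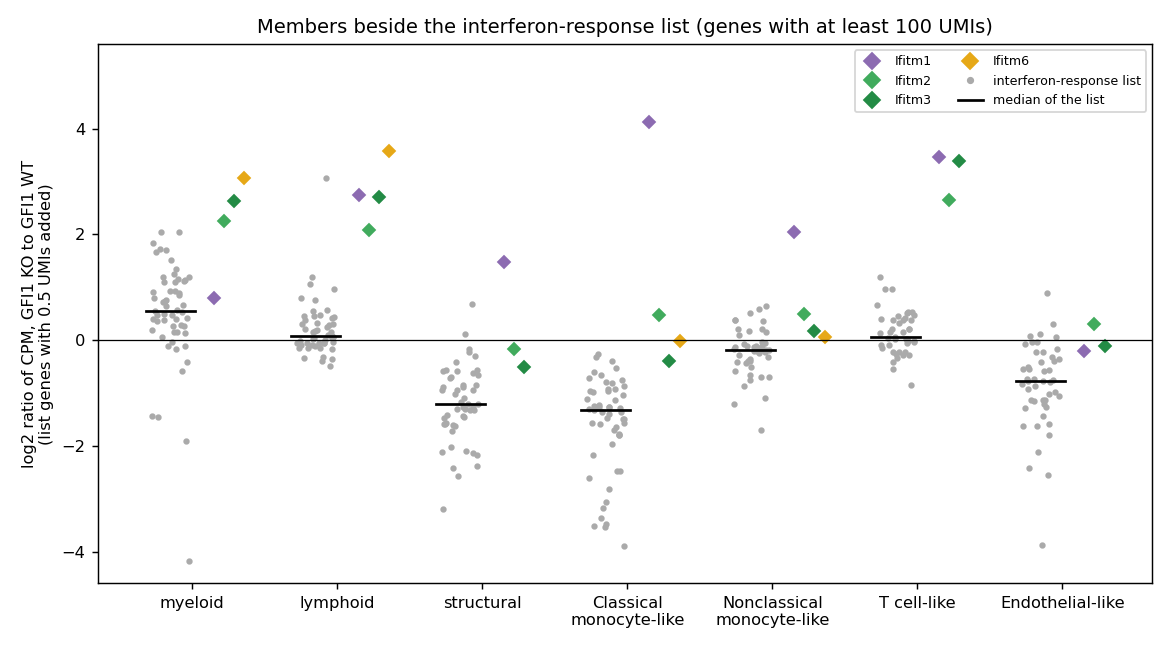
Log2 ratio of the level under the GFI1 KO label to that under the GFI1 WT label for the 4 members (diamonds) and the genes of the interferon-response list (grey points, 0.5 UMIs added, bar at the median) with at least 100 UMIs, in 3 compartments and 4 classes. In classical monocyte-like cells the list has a median of -1.32 while Ifitm1 lies at 4.13, Ifitm2 at 0.48, Ifitm6 at -0.02 and Ifitm3 at -0.40.

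Receptors, ligands and partners of the family completed the pathway. Of 6 interferon receptor genes, 3 were called higher and 1 lower in myeloid cells, where 10.6% of all genes were called higher and 23.6% lower. Ifngr1 stood at 600.2 and 266 CPM, Ifnar2 at 222 and 119 CPM, Ifngr2 at 159.6 and 102 CPM and Ifnlr1 at 0.286 and 1.99 CPM. Within classical monocyte-like cells 0 of 5 receptors were called, where 15.0% of all genes were called higher and 9.93% lower. Of 9 interferon genes, Ifng alone reached 100 UMIs in lymphoid cells, at 52.6 and 37.9 CPM, which gives a ratio of 1.39 (1.23 to 1.57). By class Ifng was called higher in T cell-like cells, with a log2 ratio of 1.47, and in NK cell-like cells, with 0.92. Among 7 genes whose proteins modify, degrade or bind IFITM proteins, Nedd4, a ubiquitin ligase of IFITM3, was called lower in myeloid cells at 1.18 and 6.81 CPM, and Zdhhc20, a palmitoyltransferase, in structural cells at 107 and 165 CPM. Over all genes 23.6% were called lower in myeloid and 20.9% in structural cells. None of the 7 was called in lymphoid cells as a whole. By class 1 of 7 was called lower in each of B cell-like, NK cell-like and dendritic cell-like cells. There 2.59%, 14.0% and 11.8% of all genes were called lower. In classical monocyte-like cells 1 of 6 was called higher, where 15.0% of all genes were.

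Likeness of pattern was read over the 34 clusters with at least 50 cells, both libraries summed, as Pearson's r of log2(CPM + 10) among 10886 genes with at least 1000 UMIs. The clusters share their libraries and several belong to one class, so r is a description. Ifitm2 and Ifitm3 were most like each other, with r = 0.956. Next to Ifitm2 came Ier3 at 0.912 and Midn at 0.903, and next to Ifitm3 came Midn at 0.878 and Zfyve9 at 0.875. Ifitm1 was most like Ptgs2 at 0.876, G0s2 at 0.841 and Hdc at 0.799, and Ifitm6 most like Mefv at 0.958, AI839979 at 0.955 and Apoc2 at 0.951. Between Ifitm1 and Ifitm6 r was 0.592, the lowest of the pairs.

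Among single cells Ifitm2 and Ifitm3 were loosely tied, and the other pairs of members had lower r. For Ifitm1 most thinned cells had 0 UMIs, which pulls its r towards 0, so a low r cannot tell whether it is related to the others. In thinned classical monocyte-like cells, 4335 and 250, Ifitm2 and Ifitm3 had r = 0.27 under the GFI1 KO label against 0.34 under the GFI1 WT label, and in nonclassical monocyte-like cells, 900 and 527, 0.48 and 0.34. In classical monocyte-like cells Ifitm1 had r = 0.0, -0.02 and 0.03 with Ifitm2, Ifitm3 and Ifitm6 under the GFI1 KO label, and Ifitm6 had 0.07 and 0.04 with Ifitm2 and Ifitm3, beside 0.14 and 0.22 in nonclassical monocyte-like cells. The summed interferon-response list had r = 0.23 and 0.23 with Ifitm3 in classical and 0.37 and 0.33 in nonclassical monocyte-like cells, while with Ifitm1, Ifitm2 and Ifitm6 it had -0.03, 0.07 and 0.02 in classical monocyte-like cells labelled GFI1 KO. The cells of a class share a library, and the thinning gave each the same depth.

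Reads of one member could be counted for another only where the transcripts are alike. In the last 400 bases of the GENCODE vM21 transcripts, no stretch of 90 bases was shared between any pair of members. Stretches of 30 bases were shared by Ifitm3 and Ifitm1, 9.97% of those of Ifitm3, and by Ifitm3 and Ifitm2, 5.12%, and by no pair that includes Ifitm6.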

How the data were processed

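Droplet single-cell RNA sequencing (10x Genomics 3′ chemistry) was analysed for 2 libraries. The authors deposited raw UMI counts per gene and called cell, for 33696 genes and 18 antibody tags; the submitters' processing notes name Cell Ranger 9.0.1 and GRCm39. Whether doublets or free RNA were removed is not given in the sources used here. The GFI1 KO library held 116825535 gene UMIs and the GFI1 WT library 162599284.

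From these counts, cells were kept at 500 or more UMIs, 200 or more genes and at most 20% mitochondrial UMIs, which removed 205 and 173 cells. Ribosomal, mitochondrial and Gm- genes, 9538 in all with 18.9% and 16.4% of UMIs, were left out of totals. Both libraries were clustered together without batch correction by the settings of the study's methods (scale of 10000 UMIs, log, 2000 variable genes, 50 components, 15 neighbours, Leiden resolution 0.8, seed 0) in Python 3.11.15 with scanpy 1.11.5, scipy 1.17.1 and leidenalg 0.10.2, and R 4.3.3 for the variable genes. The 4 members did not enter the variable genes. A cluster was named from at least 3 markers raised 1.5-fold and seen in 5% of its cells. It stayed unnamed when 60% of the markers of another lineage were raised or 50% of its cells were called doublets by Scrublet, or when cycling genes led it; these naming limits were set after the clusters were seen. Scrublet called 346 and 1146 cells, 3.3% and 5.92%, which were kept in.

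UMIs were summed per class. With 1 library per group, genes were called by size alone. Named genes were the 4 members and 3 other Ifitm genes, the 3 genes most like each member, per compartment the 3 highest and 3 lowest of the 56-gene interferon-response list ranked by the interval bound nearer to 1, and the free RNA references S100a8, S100a9, Lcn2, Ngp, Retnlg, Sftpc and Scgb1a1. Isg15, Irf7, Bst2 and Ifit3 in monocyte-like cells, the neutrophil and T cell genes given beside results, and genes leading clusters were chosen after their values were seen. Members and lists were chosen with earlier results of these data known. Alternatives changed the clustering, doublets, mitochondrial limit, total, depth and scaling. The counting intervals were tried on simulated Poisson counts. Those lack the uneven spread of UMIs over cells seen here, so the simulation could not check the intervals for these data.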

Additional observations from a re-analysis of the deposited data

Results flagged for a closer look

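Cells outside the named classes also held members, and 3 unnamed clusters with at least 50 cells of each library and at least 100 UMIs of the members had a higher sum of the 4 members under the GFI1 KO label by at least 1.5-fold. They entered no comparison of classes or compartments in the main clustering, but are part of the totals over all cells and of the likeness over clusters. A further cluster of 121 and 444 cells, with all 7 B cell markers raised, gave 38 and 39 UMIs, under that limit, at 91.6 and 23.2 CPM, a ratio of 3.96 (2.46 to 6.35).

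A cycling cluster led by Pclaf and Top2a, genes of DNA replication and mitosis, took 267 and 405 cells. Its sum stood at 1336 against 163 CPM, a ratio of 8.18 (7.66 to 8.74). Ifitm1 was there at 231 against 14.5 CPM and Ifitm6 at 106 and 2.14 CPM. Of the Ifitm1 UMIs, 5 cells held 70.1% under the GFI1 KO label, up to 242 in a cell, and 5 cells held 78.9% under the GFI1 WT label. For Ifitm6 these shares were 22.9% and 71.4%. It stayed unnamed because cycling genes led it, and the part of the mix of cell types in each library was not tested.

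A cluster of 140 and 148 cells, most of them called doublets, had a sum of 2850.2 and 754 CPM, a ratio of 3.78 (3.6 to 3.97). A cluster of 129 and 110 cells with raised genes of nonclassical monocytes and of B and T cells had a sum of 4973 and 3249 CPM, a ratio of 1.53 (1.47 to 1.59). The part of doublets in both was not tested.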

How the results depend on the processing

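With 1 library per group no library could be left out, and intervals cover counting error only. No paired analysis was possible because the groups share a single replicate number. The log2 ratio of the members' sum in myeloid cells was 2.41. It was 2.59 and 2.60 at resolutions of 0.5 and 1.2, 2.52 with each library clustered on its own, 2.54 relative to the median of all genes, 2.34 with the total over all genes, and 1.57 in thinned cells, where each cell has equal weight. It was 0.94 without the classical monocyte-like class and 0.38 as the median over clusters. In lymphoid cells it was 2.54, then 2.29 thinned, 2.13 without doublets, 2.17 as the median over clusters, 2.08 without the cluster led by Il17a and 5.06 with each library clustered on its own. In that separate clustering 243 cells unnamed in the joint clustering joined the B cell-like class under the GFI1 KO label. The part of these cells in the value of 5.06 was not tested. In structural cells -0.32 became -0.55 at resolution 1.2, -0.03 thinned, -0.12 relative to the median of all genes and 0.26 with separate clustering.

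The interferon-response list had 27 genes higher and 5 lower in myeloid cells, 17 and 8 thinned, 1 and 14 without the classical monocyte-like class, and 3 lower with separate clustering. In lymphoid cells 6 higher became 3 thinned, and 0 lower became 1 thinned, with a minimum of 30 UMIs, or without the cluster led by Il17a. In structural cells 1 higher became 0 at resolution 0.5, 4 at 1.2 and 8 with separate clustering, and 42 lower became 18 at resolution 0.5 and 23 thinned. The shares over all genes were not computed for the alternatives. The 2 alternatives that leave out a class or cluster were chosen after seeing the data.

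Of the 24 values of a member in a class, 12 were at least 1.5-fold higher. In thinned cells fewer values had enough UMIs, and 4 of those were of this size. A change of direction was counted for these 12 values only, and not for the smaller ones. Of 174 recomputed values, 126 stayed within the interval of the main value, 44 moved beyond it and 4 were counted as changed in direction. These were the members in dendritic cell-like cells with separate clustering, at -1.25 for Ifitm1, -0.65 for Ifitm2, -0.74 for Ifitm3 and -0.24 for Ifitm6 on the log2 scale. The causes of these and the other shifts were not tested. Separate clustering gave no classical monocyte-like class in both libraries, resolution 0.5 no nonclassical monocyte-like or endothelial-like class with enough cells, and no structural median over clusters could be had.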
